A study of Piaractus mesopotamicus and Piaractus mesopotamicus x Colossoma macropomum and Colossoma macropomum with 15 samples.

Results

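miR-1388 was followed through its 2 mature arms, dre-miR-1388-5p and dre-miR-1388-3p, which are 2 of the 595 loci counted in fast skeletal muscle. They were taken by name, as the rows whose names start with dre-miR-1388, and both passed the minimum mean normalized count of 10, as did 199 loci in all. The hairpin was chosen from results on these same 15 fish, namely its arm levels and its arm ratio by genotype. Levels, arm ratios and differences between genotypes are therefore given as a description, with no test. Small RNA libraries, 1 per fish, came from untreated juveniles of 3 genotypes with 5 fish each: pacu (PC, Piaractus mesopotamicus), tambaqui (TQ, Colossoma macropomum) and the hybrid tambacu (TC), which comes from a tambaqui female and a pacu male. Muscle was whole tissue, so a lower amount of a miRNA in a library could reflect fewer cells of a type or less of the miRNA per cell, and these cannot be told apart. Reads were counted on the precursors of zebrafish, Danio rerio, for all 3 genotypes. The study compared the hybrid with each parental species, and the parents with each other.

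A miRNA gene is transcribed as a hairpin, and the enzymes Drosha and Dicer cut out a short duplex with 1 strand from each arm. Usually 1 strand is kept in an Argonaute protein and guides it to mRNAs through the seed, the bases near its 5′ end, while the partner strand is mostly degraded. The count of the 5p arm over that of the 3p arm, here the arm ratio, shows how unequally both strands were recovered. miR-1388 is annotated in fishes and birds, and its target genes were not analysed here.

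The sequences are shown because the counts of each arm rest on them. On the precursor dre-mir-1388, 103 bases long, the 5p arm lies from base 23 to 44 and the 3p arm from base 60 to 81, counted from 1 at the 5′ end, and 15 bases separate them. In the first line below capitals mark both arms, and in the other lines they mark the seed, bases 2 to 8. They are zebrafish sequences in DNA letters.
dre-mir-1388: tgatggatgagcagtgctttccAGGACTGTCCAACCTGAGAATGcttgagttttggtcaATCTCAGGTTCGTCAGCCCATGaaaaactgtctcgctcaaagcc
dre-miR-1388-5p: aGGACTGTccaacctgagaatg
dre-miR-1388-3p: aTCTCAGGttcgtcagcccatg

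Both arms are 22 bases long and start with A. In the fold that RNAfold predicts for the precursor (minimum free energy -35.4 kcal/mol), 15 bases of the 5p arm pair with the 3p arm. Of the 7 seed bases, 5 are paired in the 5p arm and 7 in the 3p arm. Each arm occurs in full in 1 precursor of the 346 in the reference. None of the 344 other mature names with an exact place in the reference has either seed, and 515 of the 595 loci have such a sequence. The nearest other mature sequence is 10 mismatches or shifted bases away from either arm (miR-461 for 5p and miR-187 for 3p). Other names in the table, such as miR-100-5p, are counted at several copies.

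In all 15 fish the 5p arm had more counts than the 3p arm. The 5p arm had 45835 counts in total, from 1419 to 5416 per fish, and the 3p arm had 4962, from 124 to 501 per fish. By mean normalized count, they were the 62nd and the 114th of the 199 loci. Some mature names are counted at several copies, both among these loci and in the total of all counts. Together they took 0.106% ± 0.00854 (SD, n = 5) of all counts from hybrids, 0.0932% ± 0.00837 of those from TQ and 0.0589% ± 0.00879 of those from PC. Total counts ranged from 2422820 to 5669084 per fish, and a count of 0 would allow a level of up to 0.463 to 1.33 CPM (counting error only).

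Each marker was read at 1 copy of its mature name, the one with the most counts, so any other copies are left out of its level. Of the muscle markers, miR-1 and miR-206-3p were counted, with 45509 and 9671 counts in total at that copy. miR-133a-3p and miR-133b-3p had 0 counts in every fish, as had both endothelial miR-126a arms. Whether these 0 counts reflect absence from the tissue or the way reads were placed and counted was not tested. The summed level of the muscle markers, which is that of miR-1 and miR-206-3p only, was 801 to 1036 CPM in PC, 752 to 1425 in TC and 599 to 802 in TQ. miR-499-5p, the slow fiber marker, had 270 to 612 CPM in PC, 282 to 749 in TC and 60.4 to 354 in TQ. The liver marker miR-122 had at most 22.7 CPM in any fish.

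miR-1388-5p was highest in the hybrid. In TC its level, in CPM (counts scaled to a common library size with TMM factors), was 1276 in replicate 3, 962 in replicate 4, 951 in replicate 5, 1128 in replicate 6 and 1207 in replicate 8. In PC it was 502, 390, 474 and 508 CPM in replicates 3, 4, 5 and 10, and 1027 CPM in replicate 8. In TQ it was 797, 610, 768, 905 and 470 CPM in replicates 1, 2, 3, 6 and 8. Every TC fish therefore lay above every TQ fish, and every TC fish lay above 4 of the 5 PC fish, with PC replicate 8 inside the range of TC.

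The mean level of the 5p arm was 1105 ± 145 CPM (SD, n = 5) in TC, 710 ± 171 in TQ and 580 ± 254 in PC. Ordered by level, TC stood first, and the neighbours TQ and PC lay within their spread. The mean of TC was 1.90-fold that of PC and 1.56-fold that of TQ.

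miR-1388-3p was lowest in pacu. In PC its level was 34.0, 63.8, 63.5, 69.6 and 60.8 CPM in replicates 3, 4, 5, 8 and 10. In TC it was 90.7, 91.4, 78.9, 99.4 and 99.8 CPM in replicates 3, 4, 5, 6 and 8. In TQ it was 101, 94.5, 108, 117 and 100.3 CPM in replicates 1, 2, 3, 6 and 8. On this TMM scale no PC fish reached the level of any TC or TQ fish, while the ranges of TC and TQ met between 94.5 and 99.8 CPM. Per total count this changed. PC replicate 4 had 413 counts of 3p among 4769153, and TC replicate 3 had 362 among 5366493. PC and TC thus overlapped per total count, and all TC fish lay below all TQ fish.

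The means of the 3p arm were 104 ± 8.68 CPM (SD, n = 5) in TQ, 92.0 ± 8.52 in TC and 58.3 ± 13.96 in PC. TQ was 1.79-fold and TC 1.58-fold above PC. The order of the genotypes thus differed between the arms, with TC first for 5p and TQ first for 3p, though TC and TQ overlapped for 3p.

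**Figure D1:**
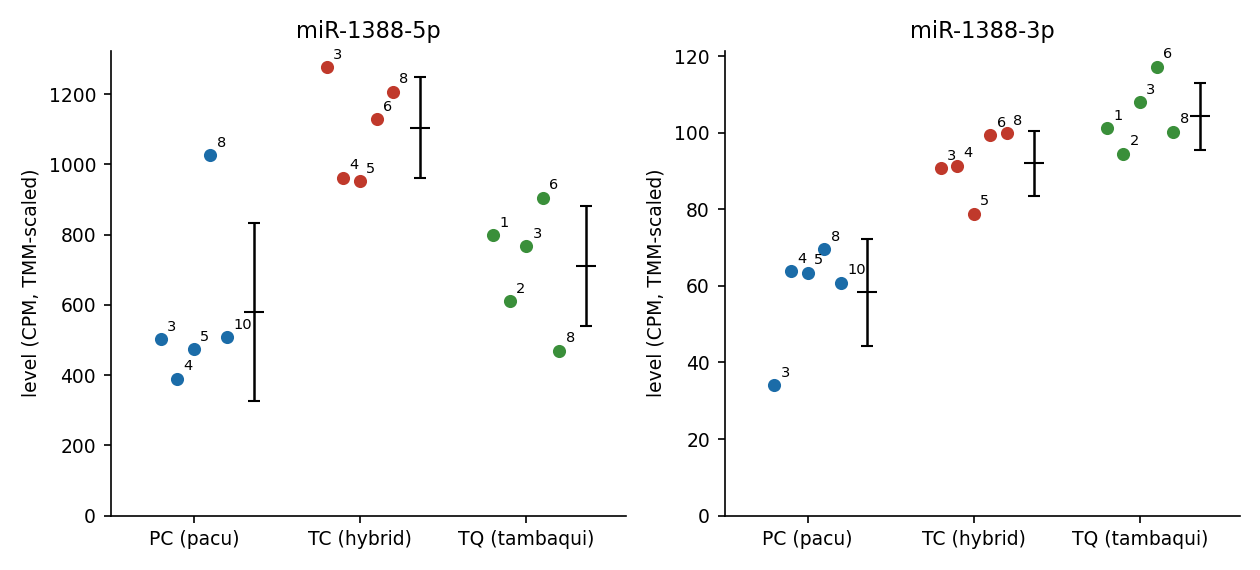
Level of each arm of miR-1388 in CPM (counts scaled to a common library size with TMM factors), 1 point per fish with its replicate number, for 5 fish of each genotype. Black bars give the mean and SD. PC replicate 8 stands at 1027 CPM for 5p among PC fish of 390 to 508 CPM, and all PC fish lie below all others for 3p.

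Leukocyte and pancreas markers, as sums, were lowest in PC, as was the 3p arm. The summed level of the 5 leukocyte miRNAs, all counted (miR-142a-3p, miR-142a-5p, miR-150, miR-155 and miR-223), was 456 to 706 CPM in PC, 712 to 919 in TC and 758 to 983 in TQ, so that no PC fish reached the other genotypes. Of all single loci tested, 8.54% had no overlap of the fish in TC vs. PC and 11.6% in PC vs. TQ. Most of the leukocyte counts were of miR-142a-5p, which by itself overlapped. It had 336 to 512 CPM in PC, 471 to 669 in TC and 359 to 605 in TQ. miR-150 overlapped between PC (up to 138.3 CPM) and TC (from 137.5 CPM). Of the single leukocyte miRNAs, miR-155 (means of 3.71, 3.19 and 7.62 CPM in PC, TC and TQ), miR-223 (39.5, 39.3 and 83.6 CPM) and miR-142a-3p (45.3, 43.2 and 70.2 CPM) had no higher mean in TC than in PC, unlike 3p. The 4 pancreas markers summed to 14.9 to 28.6 CPM in PC, 30.5 to 52.6 in TC and 28.8 to 40.8 in TQ. Of these, miR-216a, miR-216b and miR-217 had their lowest mean in PC. The PC means of miR-216b and miR-217 were 0.935 and 0.932 CPM. That is within the 0.463 to 1.07 CPM that a count of 0 would allow in PC fish. miR-217 overlapped between PC (up to 1.24 CPM) and TC (from 0.643 CPM). miR-375 went the other way, with means of 13.1, 6.67 and 7.81 CPM in PC, TC and TQ. Erythroid markers, miR-144-3p and miR-451, summed to 2403 to 3904 CPM in PC, 3754 to 14585 in TC and 1287 to 9215 in TQ. The part of these cells in the levels of either arm was not tested.

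In the fit of edgeR over all 199 loci, the log2FC of miR-1388-5p was 0.93 (SE 0.23) in TC vs. PC, 0.64 (SE 0.23) in TC vs. TQ and -0.29 (SE 0.23) in PC vs. TQ. Set against the average log2 level of both parents, TC differed by 0.78 (SE 0.20). For miR-1388-3p the log2FC was 0.66 (SE 0.17) in TC vs. PC, -0.18 (SE 0.17) in TC vs. TQ and -0.84 (SE 0.17) in PC vs. TQ. Against the mean of the parents it was 0.24 (SE 0.15). By TMM-scaled level, fish of TC and TQ were separate for 5p and overlapped for 3p. Fish of PC and TQ were separate for 3p and overlapped for 5p. This pattern depended on the scaling. Per total count, TC and TQ were separate for 3p too. Scaled by the reads left after the size filter, TC and TQ overlapped for 5p, and PC and TQ for 3p.

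By the thresholds of the study, an absolute log2FC of at least 0.75 and an adjusted p of at most 0.05, 1 of the 2 arms, 5p, was called upregulated in TC vs. PC, where 3.52% of all loci tested were called. In TC vs. TQ 0 of the 2 arms were called, against 14.6% of loci. In PC vs. TQ the 3p arm was called downregulated, against 10.6% of loci, and against the mean of the parents the 5p arm was called in TC, against 3.02%. The study, which used DESeq2, listed 5p as upregulated in TC vs. PC and did not list 3p in PC vs. TQ. The calls given here are those of edgeR. They repeat contrasts known when the hairpin was chosen, and nothing is read from them. The call of 5p in TC vs. PC was lost without PC replicate 10 (log2FC 0.87) and that of 3p in PC vs. TQ without PC replicate 3 (log2FC -0.69), and without PC replicate 4 the 3p arm was also called in TC vs. PC (log2FC 0.76). The call of 5p against the mean of the parents was lost without TC replicate 3 (log2FC 0.73) or TC replicate 8 (0.74).

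For reference, by TMM-scaled level the fish of TC and PC did not overlap at 8.54% of the 199 loci, as for 3p. Those of TC and TQ did not overlap at 17.1%, as for 5p, and those of PC and TQ at 11.6%, as for 3p.

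The arm ratio does not depend on how a library is scaled, because both counts come from the same fish. It was 14.1, 10.5, 12.1, 11.3 and 12.1 in TC replicates 3, 4, 5, 6 and 8. In TQ it was 7.88, 6.45, 7.12, 7.72 and 4.69 in replicates 1, 2, 3, 6 and 8. In PC it was 14.75 in replicates 3 and 8 alike, and 6.12, 7.47 and 8.35 in replicates 4, 5 and 10. Every TC fish was above every TQ fish, while the PC fish stood in 2 places, 2 of them above all TC fish and 3 below all TC fish.

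The mean ratio was 6.77 ± 1.29 (SD, n = 5) for TQ, 10.3 ± 4.15 for PC and 12.0 ± 1.31 for TC. PC lay within its spread of both neighbours. As a share of the counts of the hairpin, the 3p arm made up 13.2% ± 2.59 (SD, n = 5) for TQ fish, 9.85% ± 3.42 for PC fish and 7.74% ± 0.748 for TC fish. The lowest share was 6.35% in PC replicate 8 (exact Clopper-Pearson 95% interval 5.56% to 7.21%) and in PC replicate 3 (5.31% to 7.52%), and the highest was 17.6% in TQ replicate 8 (16.1% to 19.2%).

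By TMM-scaled level, the way in which PC fish reached a ratio of 14.75 differed between both fish. PC replicate 8 had a 5p level of 1027 CPM, above the 390 to 508 CPM of the other PC fish, beside a 3p level of 69.6 CPM. PC replicate 3 had a 5p level of 502 CPM, inside the range of its genotype, beside 34.0 CPM of 3p, the lowest of all 15 fish. On this scale the equal ratios thus came from a high 5p level in 1 fish and from a low 3p level in the other. That reading rests on the TMM factor of PC replicate 8, 0.621, the lowest of all fish. In raw counts PC replicate 8 had 3245 for 5p and 220 for 3p, of 5089685 in total. PC replicate 4 had 2527 and 413 of 4769153, so per total count PC replicate 8 was low in 3p as well.

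**Figure D2:**
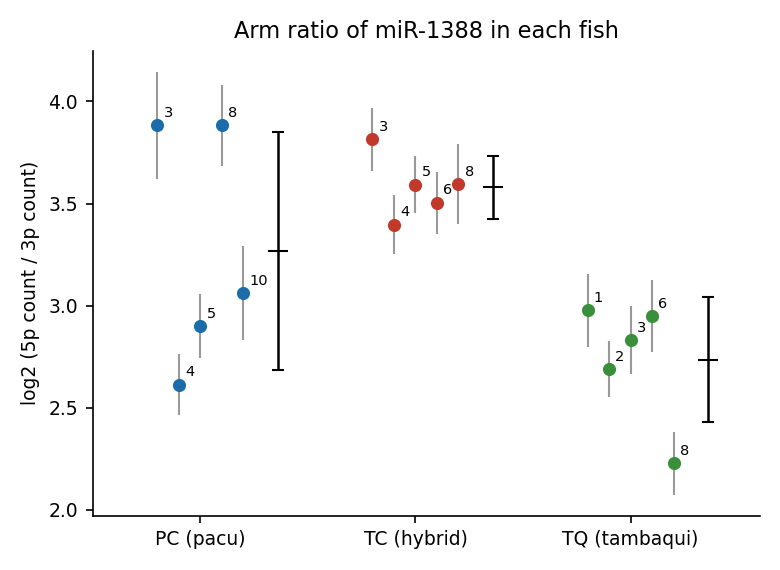
Arm ratio of miR-1388 as log2 of the 5p count over the 3p count in each fish, with grey bars for the 95% counting interval and black bars for the mean and SD of 5 fish. The TC fish lie between 3.40 and 3.81 and the TQ fish between 2.23 and 2.98, while PC fish lie from 2.61 to 3.88.

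Counting error was smaller than the spread between fish. The SD of the log2 ratio was 0.58 among PC fish, 0.15 among TC fish and 0.31 among TQ fish, where the counts alone would give 0.10, 0.081 and 0.083. The spread between fish was smallest in TC and largest in PC. The genotypes also differed in depth and scaling, with a median total count of 2858311 in TQ, 4763971 in TC and 4769153 in PC, and TMM factors of 1.02 to 1.43 in TQ, 0.744 to 1.004 in TC and 0.621 to 1.36 in PC. The summed intestine markers, miR-192 and miR-194a, were lowest in TQ, as was the arm ratio, with 14.4 to 19.0 CPM against 23.8 to 35.8 in TC and 20.5 to 41.7 in PC (r = 0.76 with the log2 arm ratio over 15 fish, as a description). That sum was mostly miR-192, with 1463 counts in total against 47 of miR-194a. By itself miR-192 had its lowest mean in TQ. miR-194a had its lowest mean in TC instead, where the mean arm ratio was highest. Other sums also had their lowest mean in TQ. Those of striated muscle were 893, 1150 and 728 CPM in PC, TC and TQ (r = 0.62 with the log2 arm ratio). Slow muscle had 477, 572 and 157 CPM (r = 0.44), and liver 14.8, 15.8 and 6.56 CPM (r = 0.62). For erythroid, leukocyte and pancreas sums r was 0.22, -0.29 and -0.025. The part of depth or of any of these cell types in the arm ratio was not tested.

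The difference of the log2 arm ratio, from a fit of edgeR with a term for each fish, was 0.85 (SE 0.23) in TC vs. TQ, 0.52 (SE 0.24) in PC vs. TQ and 0.32 (SE 0.24) in TC vs. PC. Against the mean of the parents it was 0.58 (SE 0.20) in TC. Between TC and PC both arms had higher means in TC, and the difference of their ratio ran from 0.16 to 0.48 when each fish was left out in turn. It was below that of PC vs. TQ over all fish, but above it without PC replicate 3 (0.47 against 0.37) or PC replicate 8 (0.48 against 0.36). Between PC and TQ both arms had lower means in PC, 3p more so than 5p. Between TC and TQ the arms went apart, with 5p above and 3p slightly below.

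**Figure D3:**
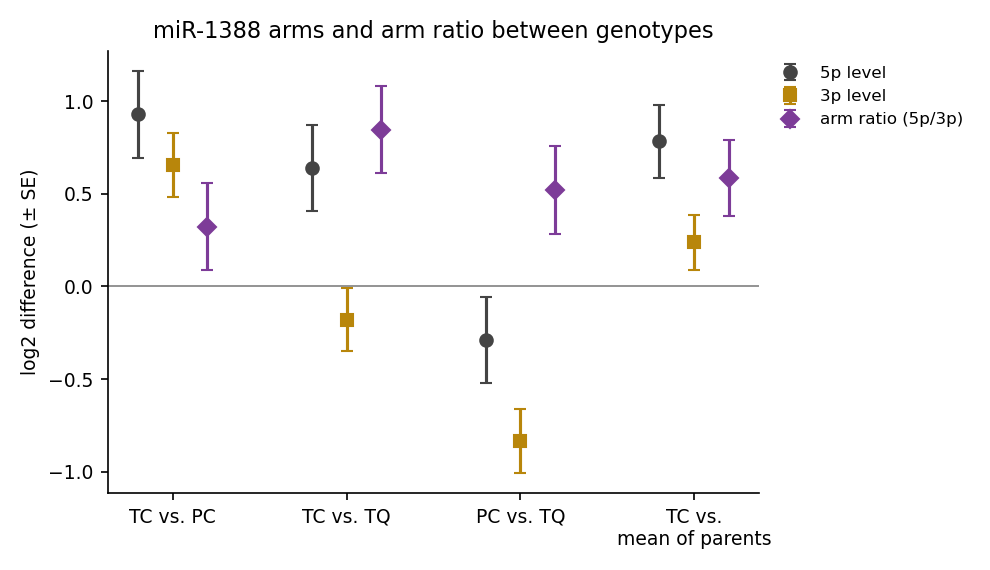
Log2 differences between genotypes, with SE, for the level of miR-1388-5p, the level of miR-1388-3p and their arm ratio, from fits over all 15 fish. In TC vs. TQ the 5p level (0.64) and the 3p level (-0.18) lie on either side of 0, and the arm ratio differs by 0.85.

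The shift of the arm ratio between TC and TQ was not particular to miR-1388. Of the 40 hairpins with counts on both arms, 23 had a mean of at least 10 on each and were fitted together. In TC vs. TQ 11 of them, or 47.8%, passed the same thresholds, and miR-1388 was 1 of the 11. For miR-1388 this repeats a contrast known when the hairpin was chosen, and nothing is read from its call. The fish of TC and TQ did not overlap at 56.5% of the 23 hairpins, as for miR-1388. Over the 23 hairpins the difference ranged from -1.29 to 1.38 with a median of 0.40, and 7 hairpins had a larger rise than miR-1388. Without TQ replicate 8 the difference of miR-1388 was 0.72, under the minimum. Some of these hairpins share reads, as do those of miR-199-5p and of miR-181a-5p, and are not independent.

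In TC vs. PC and in PC vs. TQ, edgeR called 0% of the 23 hairpins for the arm ratio, and limma on the log2 ratios called 0 as well, while 4 and 8 hairpins had an unadjusted p under 0.05. Without overlap of the fish were 0% and 4.35% of the hairpins, and miR-1388 was not among them. Against the mean of the parents 21.7% were called in TC, by limma 4 hairpins, and miR-1388 was not called.

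By its mean arm ratio miR-1388 was the 12th of the 23 hairpins, of which 13 had more counts on the 5p arm and 10 on the 3p arm. As a geometric mean over 15 fish, its ratio was 9.14. Just above it stood miR-142a, a miRNA of blood cells, at 9.28, and the next below was miR-22b at 1.48. For miR-142a the arm ratio also differed by 0.85 (SE 0.21) in TC vs. TQ, beside 0.33 in PC vs. TQ and 0.52 in TC vs. PC.

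Of the other hairpins of interest, miR-2188 differed by 1.14 (SE 0.26) in TC vs. TQ, 0.64 in PC vs. TQ and 0.50 in TC vs. PC, each in the direction of miR-1388. miR-499, the hairpin of slow fibers, differed by 0.23 (SE 0.22) and the hypoxia miRNA miR-210 by 0.15 (SE 0.22) in TC vs. TQ. The largest differences in TC vs. TQ were those of miR-221 (1.38, SE 0.30), miR-140 (-1.29, SE 0.29) and miR-2188. In TC vs. PC they were those of miR-199-3 (0.95), miR-221 (0.86) and miR-22a (-0.53), and in PC vs. TQ those of miR-100-1 (0.93), miR-145 (-0.83) and miR-140 (-0.82). Within genotypes, the log2 ratio of miR-1388 had an SD of 0.39 between fish, near the median of 0.44 over the 23 hairpins (range 0.21 to 0.73).

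**Figure D4:**
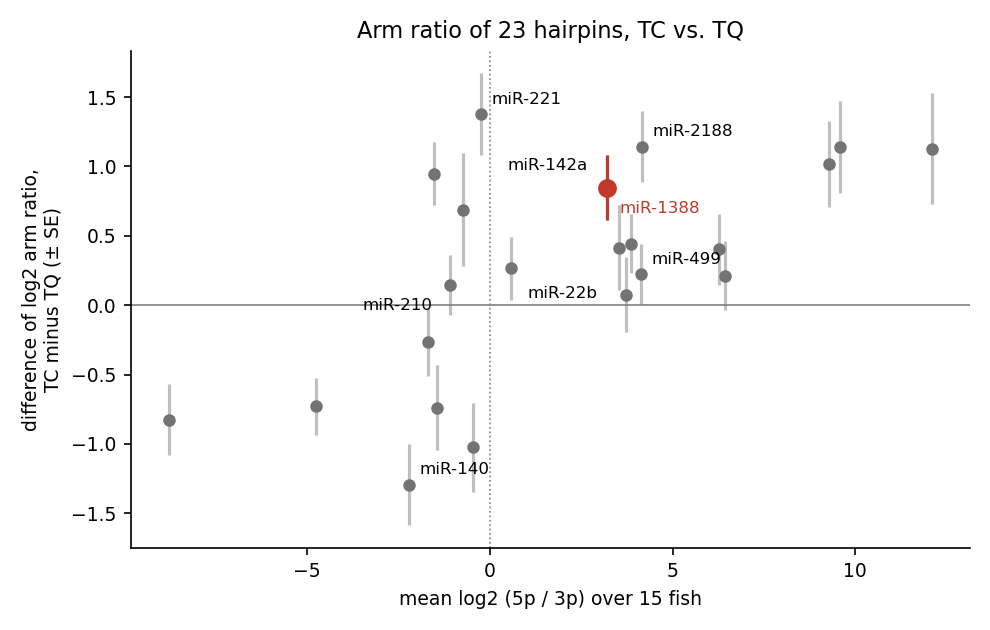
Difference of the log2 arm ratio between TC and TQ, with SE, for 23 hairpins against their mean log2 arm ratio over 15 fish. miR-1388, in red, lies at 0.85 and covers the point of miR-142a, and all 13 hairpins with more 5p than 3p lie above 0.

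Whether the arms varied together was also examined within genotypes, where differences between genotypes play no part. After subtraction of the genotype means, the log2 levels of both arms over 15 fish gave a Pearson's r of 0.34 (two-sided permutation test within genotype, p = 0.327) and a Spearman's rho of 0.37 (p = 0.189). This was the only relation tested. The hairpin was chosen with the arm levels of these same fish known, so the p-values here serve as a description only. Without the 2 fish farthest from the median of 5p, PC replicate 8 and TQ replicate 6, r was -0.0081. It was 0.10 without PC replicate 8 alone and 0.29 without TQ replicate 6 alone. Without PC replicate 3 r was 0.58 (permutation p = 0.0157). When each library was scaled by its size-filtered reads, r was 0.65 (permutation p = 0.0115), and both arms share that scaling. Over the 23 hairpins the same r ranged from -0.82 to 0.96 with a median of 0.12, and that of miR-1388 was the 9th highest.

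The loci most like each arm were different. Over the 15 fish, 150 mature names with a mean count of at least 10 were compared, each at its copy with the highest mean. miR-1388-5p was most like miR-10a-5p (r = 0.89), let-7g (r = 0.80) and miR-30d (r = 0.77). miR-1388-3p was most like the lymphocyte miRNA miR-150 (r = 0.89), miR-462 (r = 0.76) and miR-15a-5p (r = 0.74). The arms had r = 0.52 with each other, and 21 other names were more like 5p and 24 more like 3p than the opposite arm. These correlations hold both differences between genotypes and the shared scaling, and are given as a description. With the genotype means subtracted they were 0.80, 0.56 and 0.78 for the names listed for 5p, and 0.64, 0.59 and 0.57 for those listed for 3p.

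By their means, the orders of the genotypes matched only in part. The mean of let-7g was 9715 ± 1014 CPM (SD, n = 5) for TC, against 6076 ± 492 for PC and 6067 ± 469 for TQ, highest in the hybrid as was 5p. miR-10a-5p (6074 ± 3050 CPM) and miR-30d (7433 ± 1848 CPM) also had their highest mean in TC. Of the names listed for 5p only miR-10a-5p had its PC mean below that of TQ. For each of these names, as for 5p, PC and TQ lay within their spread. miR-150 had 105 ± 28.3 CPM (SD, n = 5) in PC, 166 ± 16.8 in TC and 186 ± 23.6 in TQ, lowest in pacu as was 3p. miR-462 and miR-15a-5p were lowest in PC as well (283 ± 71.2 and 153 ± 49.7 CPM). Their means were higher in TC (399 ± 51.3 and 233 ± 66.4 CPM) than in TQ (380 ± 70.3 and 218 ± 47.3 CPM), but within the spread.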

How the data were processed

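Fast muscle of 15 fish was sequenced for small RNA, and groups and fish numbers were taken from the sample titles. The authors clipped adapters, kept reads of sufficient quality and suitable size, and aligned these to miRBase precursors of Danio rerio with Hisat2. They deposited raw counts per mature locus, made with featureCounts. A base that differs between these species and zebrafish could therefore lower the count of an arm. For Hisat2 and featureCounts, versions and the treatment of reads with several places were not given in the sources used here. A second deposited table held a normalized signal, in which each fish had its counts divided by its own size factor. This signal matched the raw counts at all 595 loci and was not tested.

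Levels were fitted with edgeR 4.0.16 in R 4.3.3 (quasi-likelihood test, TMM scaling, all 15 fish, a minimum mean normalized count of 10, which 199 loci reached, Benjamini-Hochberg adjustment). Arm ratios were fitted with edgeR over 23 hairpins, with terms for fish and for arm within genotype. limma 3.58.1 and DESeq2 1.42.0 served as alternatives. Of the 595 loci, 540 could be placed on a precursor in the study's annotation, and the others are not used here for hairpins. Structures came from RNAfold 2.7.2. Correlations used log2(CPM + 0.5) and 100000 permutations. Python 3.11.15 with numpy 2.4.6, pandas 2.3.3, scipy 1.17.1 and matplotlib 3.10.9 was used for tables and plots. Both fits were also run on simulated data, with changes larger than those of miR-1388, and recovered 93% to 100% of them. How well smaller changes are found was not tested. For the arm ratios all simulated hairpins had the same fixed spread, not the spread of each real hairpin. Recovery at the real spread was therefore not tested either. Alternatives covered scaling, filters, tool, fish in the fit, summed copies, the fish number as a replicate block and each fish left out. The miRNAs named are both arms, the 3 names most like each, loci sharing a seed, the hairpins of miR-2188, miR-210 and miR-499, the neighbours of miR-1388 by arm ratio, the 3 hairpins with the largest difference in each contrast, and the marker lists. Beside these, miR-222a was named after its values were seen, miR-100-5p, miR-181a-5p and miR-199-5p as loci with several copies, and miR-461 and miR-187 as the nearest sequences. Members, lists and tests were chosen with earlier results of these data known.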

Additional observations from a re-analysis of the deposited data

Results flagged for a closer look

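Among the PC fish, the 5p level of replicate 8 was 1027 CPM, against 390 to 508 CPM in the other 4 fish. The gap was 0.82 of the range of the group. The 3p level of PC replicate 3 was 34.0 CPM, against 60.8 to 69.6 CPM in the others, a gap of 0.75 of the range. A gap above 0.710, Dixon's critical value, served as a flag. Of 9 sets of 5 fish checked in this way (both arm levels and the log2 arm ratio in each genotype), these 2 were flagged. The hairpin was chosen from these same values, so the flags are a description and not a test. Both flags rest on TMM-scaled levels, with a TMM factor of 0.621 in PC replicate 8. Whether they hold under other scalings was not tested.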

How the results depend on the processing

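The level of each arm kept its direction in each contrast under every scaling, filter, tool and fit tried and with each fish left out, except that the log2FC of 3p against the mean of the parents turned to -0.038 with total counts as library sizes. That scaling moved the median log2FC of all loci by -0.41 in TC vs. TQ, -0.25 in PC vs. TQ and -0.12 in TC vs. PC, and the 3p log2FC in TC vs. TQ to -0.56 (-0.18 relative to the median). It also moved 5p to 0.28 in TC vs. TQ (0.66 relative to the median) and to -0.61 in PC vs. TQ (-0.37 relative to it), while with the replicate block 5p in PC vs. TQ was -0.0098 (SE 0.34). The arm ratio differed in the same direction in all fits, from 0.72 to 1.15 in TC vs. TQ. The 5p call in TC vs. PC was lost when libraries were scaled by size-filtered reads (log2FC 0.93, SE 0.32) and with the replicate block (0.87, SE 0.27), and the 3p call in PC vs. TQ with both, without a count filter and with the log2FC prior of DESeq2. The 5p call against the mean of the parents was lost under 6 of 9 such alternatives (log2FC 0.58 to 0.86).

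The number of called loci in TC vs. PC was 4 with total counts, 3 with size-filtered reads, 15 without a filter, 15 and 14 with DESeq2 without and with prior, 1 with the replicate block and 19 without a log2FC minimum. In TC vs. TQ it was 1 with size-filtered reads and 53 without a minimum. In PC vs. TQ it was 8 with size-filtered reads and 9 with the block, and against the mean of the parents 1 with size-filtered reads and 18 without a minimum. The cause was not tested. With 1 fish left out the counts were 4 to 11, 17 to 34, 16 to 38 (4 and 11 in TC vs. PC without PC replicates 10 and 4, 17 without TQ replicate 3, 18 without TQ replicate 8 and 19 without TQ replicate 2 in TC vs. TQ, and, leaving out PC replicate 4, 38 in PC vs. TQ) and 5 to 9, respectively. Hairpins called in TC vs. TQ and against the mean of the parents were 6 and 3 with a minimum mean of 100, which leaves 15 hairpins. Without a filter 1 was called in TC vs. PC. With limma and the replicate block, hairpins called were 1 in PC vs. TQ and 2 against the mean of the parents, and the arm ratio of miR-1388 in PC vs. TQ differed by 0.94 (SE 0.36). Leaving out a fish gave 0 to 2 hairpins in TC vs. PC (2 when PC replicate 3 or 8 was dropped) and 0 to 4 in PC vs. TQ (4 without PC replicate 4 and 3 without PC replicate 5). The within-genotype r of the arms was 0.10 to 0.58 with each fish left out, and -0.0081 without the 2 farthest fish. It was 0.65 with size-filtered reads, 0.29 with DESeq2 size factors and 0.22 with total counts. Without miR-199-5p and miR-100-5p in the library sizes it was 0.12. Fish numbers are shared by 9 pairs of fish of different genotypes, whose deviations correlated from -0.49 to 0.27, above 0.1 in 4, so the number was not treated as a pairing. In each genotype the arm ratio varied more between fish than counting error alone gives.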

Other observations

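Across hairpins, the arm that was dominant over all 15 fish tended to be more dominant in the hybrid than in tambaqui. All 13 hairpins with more counts on 5p had a higher 5p to 3p ratio in TC, and 6 of the 10 with more counts on 3p had a lower one. The median log2 difference was 0.44 over all 13 of the former and -0.50 over all 10 of the latter. Of the 11 hairpins called, 9 moved toward their dominant arm, miR-1388 among them, and 2, miR-221 and miR-222a, moved toward the other. In the 15 hairpins whose arms differed by more than 4-fold, all 15 moved toward the dominant arm in TC vs. TQ, 14 in TC vs. PC and 14 in PC vs. TQ. This grouping was chosen after seeing the data, the comparisons share fish, hairpins share reads, and no test was run.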
